A study of Homo sapiens with 6 samples.

Results

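Expression of 9 genes of the p53 network, MDM2, MDM4, PPM1D, TP53INP1, ZMAT3, RRM2B, SESN1, SESN2 and SESN3, was compared between KMS27 cells with HA-TAZ and wild type KMS27 cells. KMS27 is an established human multiple myeloma line, that is, a line of malignant plasma cells. TAZ, the product of WWTR1, is a transcriptional coactivator held back by the Hippo kinases, and HA is a peptide tag fused to it. The genes were taken by symbol: the TPM (a share of the library that takes account of how long each transcript is) of every transcript carrying the symbol was summed per Ensembl gene ID, which gave 9 of the 63677 genes, with 83 of the 215170 transcripts. The study had 3 libraries of HA-TAZ overexpressing cells and 3 of wild type cells, called control a, b and c here, from total RNA after ribosomal depletion. No label holds the name of the control columns, so these were matched to wild type because only the other 3 columns name TAZ. These columns are named scr and the wild type sample titles carry HA, which the labels do not explain, so whether the controls carried a vector is not known. The labels do not give the promoter of the HA-TAZ construct, the time of expression or whether the cells were a pool or a clone. The protocol speaks of libraries made in triplicate without saying that cultures were separate, so p-values measure only the spread between these libraries, which may be technical.

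WWTR1 stood at 293 to 306 TPM in the HA-TAZ libraries and at 1.69 to 2.69 TPM in the controls. All 9 plasma cell markers had a mean of at least 1 TPM, with a summed level of 2785 to 3217 TPM with HA-TAZ and 4270 to 4825 TPM in the controls, while 0 of 4 mature B cell and 0 of 4 T cell markers reached 1 TPM. A mean of 1 TPM was also reached by 2 of 4 fibroblast or stroma, 1 of 4 monocyte or macrophage, 1 of 3 endothelium, 1 of 3 epithelium and 0 of 3 erythroid markers. TPM states shares of a library and keeps no read depth, so values were also divided by a factor per library (the median ratio to all genes, 0.866 to 0.967 with HA-TAZ and 1.06 to 1.21 in the controls) and are then called scaled TPM. The choice matters for direction: the median difference over all 22651 genes tested was -0.03 on the log2 scale with scaled TPM and -0.27 with TPM as deposited. In bulk RNA, fewer cells with a transcript and less of it per cell cannot be told apart.

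The tumour suppressor p53 is a transcription factor that DNA damage and other stresses stabilise. Its targets include its own brakes: MDM2 is a ubiquitin ligase that marks p53 for degradation, and PPM1D (WIP1) is a phosphatase that removes activating phosphates from p53 and its kinases, whereas the MDM2 relative MDM4 (MDMX) binds p53 and masks its transactivation domain. Other targets act downstream. The sestrins restrain mTORC1 through the GATOR complexes and AMPK, and SESN1 is known as a p53 target, SESN2 as a target of p53, ATF4 and NRF2, and SESN3 as a target of FOXO factors.

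The stretches shown are those before the starts with a match to the p53 site, in MDM2 and SESN1, and, for contrast, those before the starts of the most abundant SESN1 and SESN2 transcripts. RefSeq promoter windows (GRCh38.p14, 250 bases before to 50 bases after each start, 7 of the 9 genes and 11 distinct windows) were searched for the p53 consensus site. That site is 20 bases long, a pair of decamers with no spacer, reads the same on both strands, and was allowed up to 3 mismatches. Among all 35116 RefSeq windows, 5.20% held at least 1 match and 0.313% held 2 or more. TP53INP1 and RRM2B had no window and were not searched. No annotated transcript started in the ZMAT3 windows. Among the genes searched, MDM2 and SESN1 were those with a match, printed in capitals in the 250 bases before the start.
MDM2 internal promoter, chr12:68808767-68809016, plus strand: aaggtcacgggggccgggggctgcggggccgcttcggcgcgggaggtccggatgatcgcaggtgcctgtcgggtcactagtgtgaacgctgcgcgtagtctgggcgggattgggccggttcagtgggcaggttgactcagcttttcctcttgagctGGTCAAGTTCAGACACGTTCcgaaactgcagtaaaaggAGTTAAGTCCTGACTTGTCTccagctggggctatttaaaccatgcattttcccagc
SESN1 downstream start, chr6:109008989-109009238, minus strand: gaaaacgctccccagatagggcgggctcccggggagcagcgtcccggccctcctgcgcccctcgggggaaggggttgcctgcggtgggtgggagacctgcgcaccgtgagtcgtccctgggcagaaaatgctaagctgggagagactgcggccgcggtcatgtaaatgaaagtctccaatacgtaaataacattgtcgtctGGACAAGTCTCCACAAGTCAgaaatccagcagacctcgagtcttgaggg
SESN1 upstream start, chr6:109094847-109095096, minus strand: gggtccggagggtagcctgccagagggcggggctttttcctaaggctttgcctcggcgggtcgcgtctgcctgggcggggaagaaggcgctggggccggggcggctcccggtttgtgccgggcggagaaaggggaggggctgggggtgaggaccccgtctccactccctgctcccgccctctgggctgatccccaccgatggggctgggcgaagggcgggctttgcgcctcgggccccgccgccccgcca
SESN2, chr1:28259268-28259517, plus strand: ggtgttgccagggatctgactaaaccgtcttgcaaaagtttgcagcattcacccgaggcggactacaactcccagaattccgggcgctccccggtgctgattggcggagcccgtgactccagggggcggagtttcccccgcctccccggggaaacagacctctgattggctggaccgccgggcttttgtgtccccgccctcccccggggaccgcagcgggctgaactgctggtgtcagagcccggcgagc
The MDM2 stretch held 2 matches that do not overlap, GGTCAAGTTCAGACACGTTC with 2 mismatches, beginning at -94 from the start, and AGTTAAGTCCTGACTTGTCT with 3, beginning at -56. Windows with a match of at most 2 mismatches made up 0.649% of all windows. The SESN1 downstream stretch held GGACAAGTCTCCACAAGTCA with 3 mismatches, beginning at -49. The transcript that starts there was at 0.413, 0.525 and 0.372 TPM with HA-TAZ and 0.811, 0.903 and 0.641 TPM in the controls, every HA-TAZ library below every control, also in scaled TPM (0.479 ± 0.0624 against 0.702 ± 0.114). Of all transcripts tested, that is, those with a mean of at least 1 TPM, 32.5% did not overlap between groups in scaled TPM. This SESN1 transcript was too low to be tested here, and the authors' deposited Wald test gave it a natural log effect of -0.358 (q = 0.547). No match lay in the SESN1 upstream window, in which the most abundant SESN1 transcript starts, or in the SESN2 window. A match is a description of letters and shows no binding.

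In the controls, the order of the deposited levels, which are corrected for length, was MDM2 (57.8 ± 7.04 TPM, SD, n = 3), MDM4 (46.2 ± 4.26), SESN2 (27.3 ± 1.17), SESN1 (25.5 ± 2.97), TP53INP1 (19.2 ± 1.46), PPM1D (16.4 ± 1.90), ZMAT3 (12.7 ± 1.34), RRM2B (11.6 ± 0.473) and SESN3 (0.475 ± 0.0466). SESN2 and SESN1 lay within their spread of each other, as did ZMAT3 and RRM2B. With HA-TAZ the order changed in the middle: SESN2 stood at 28.6 ± 0.751 TPM, TP53INP1 at 22.5 ± 0.737 TPM, and SESN1, now below TP53INP1, at 14.5 ± 1.79 TPM.

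**Figure D1:**
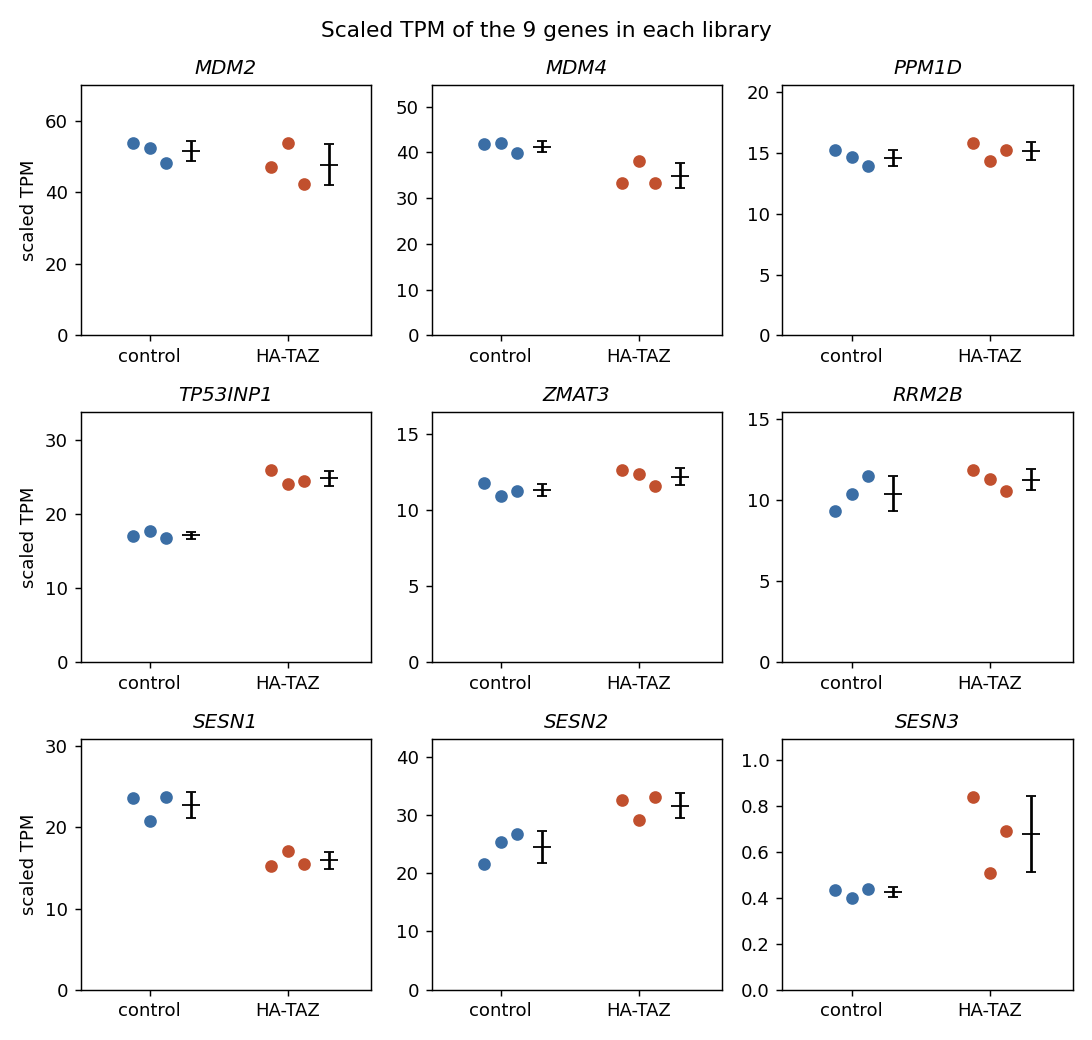
Scaled TPM (y axis, from 0) of each of the 9 genes in the 3 control libraries (blue points, left) and the 3 HA-TAZ libraries (red points, right); the black bar is the mean ± SD. TP53INP1, SESN2 and the barely expressed SESN3 lie higher and SESN1 and MDM4 lower in every HA-TAZ library than in any control, while MDM2, PPM1D, ZMAT3 and RRM2B overlap.

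Of the 9 genes, 8 reached the mean of 1 TPM needed for testing with limma, and 2 passed an adjusted p of 0.05: TP53INP1 rose and SESN1 fell. The background was 7.29% of all genes tested (4.67% called higher and 2.63% lower). The median log2 difference of the 8 tested genes was 0.07, with 4 of 8 not overlapping between groups in scaled TPM against 38.5% of all genes tested. At an unadjusted p under 0.05, 2 of the 8 were higher and 2 lower, against 30.7% of all genes tested. With TPM as deposited, 2 of the 8 were called, both lower (SESN1 and MDM4), where 14.7% of all genes were called. The regulators of p53, MDM2, MDM4 and PPM1D, held no call in scaled TPM.

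MDM2 had deposited levels of 40.8, 52.1 and 37.6 TPM in the HA-TAZ libraries 1, 2 and 3 and 65.1, 57.2 and 51.0 TPM in controls a, b and c. HA-TAZ 2 overlapped the controls. In scaled TPM the means were 47.8 ± 5.82 and 51.5 ± 2.90, a difference of -0.11 ± 0.10 (SE) in log2(scaled TPM + 1), with a 95% interval of -0.35 to 0.13 (limma, adjusted p = 0.470). The interval holds both a fall and a rise, so neither a change nor equal levels can be read from it.

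MDM4 had deposited levels of 28.8, 36.8 and 29.6 TPM with HA-TAZ and 50.6, 45.9 and 42.1 TPM in the controls. Every HA-TAZ library lay below every control, also in scaled TPM (34.9 ± 2.75 against 41.3 ± 1.26). The difference of -0.24 ± 0.07 on the log2 scale (interval -0.40 to -0.08) missed the threshold (limma, adjusted p = 0.0798). With TPM as deposited it was -0.53 and passed (limma, adjusted p = 0.0403). Adjusted p ranged from 0.0403 to 0.220 over its 14 alternatives.

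The ratio of MDM2 to MDM4 within a library needs no scaling between libraries. It was 1.42, 1.42 and 1.27 with HA-TAZ and 1.286, 1.247 and 1.212 in the controls. The groups overlapped in this ratio, with a log2 difference of 0.13 (exact two-sided permutation test, p = 0.2, where 3 against 3 libraries cannot give less than 0.1).

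PPM1D had scaled levels of 15.9, 14.4 and 15.3 TPM with HA-TAZ and 15.3, 14.7 and 13.9 TPM in the controls. The libraries interleaved, and the log2 difference was 0.05 ± 0.06 with an interval of -0.11 to 0.20 (limma, adjusted p = 0.626). Its sign turned with the scaling, to -0.23 with TPM as deposited and -0.02 with factors from protein-coding genes.

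TP53INP1 encodes a stress protein that promotes p53-dependent cell death and takes part in autophagy. Its scaled levels were 25.9, 24.0 and 24.4 TPM with HA-TAZ and 17.0, 17.7 and 16.7 TPM in the controls. Each HA-TAZ library lay above each control, and the mean was 44.6% higher (24.8 ± 1.01 against 17.1 ± 0.470). The log2 difference was 0.51 ± 0.05, with an interval of 0.38 to 0.64 (limma, adjusted p = 0.0116). The deposited levels, 22.4, 23.2 and 21.7 against 20.6, 19.2 and 17.7 TPM, did not overlap either, but the difference of 0.22 did not pass (limma, adjusted p = 0.0898). When 1 library was left out the difference stayed at 0.48 to 0.53, and it passed without control a or control c (limma, adjusted p = 0.0367 and 0.0417) but not without HA-TAZ 1, 2 or 3 or control b (0.0604, 0.0543, 0.0531 and 0.0515).

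ZMAT3, an RNA-binding zinc finger protein that acts in splicing downstream of p53, had scaled levels of 12.7, 12.4 and 11.6 TPM with HA-TAZ and 11.8, 10.9 and 11.3 TPM in the controls. HA-TAZ 3 lay below control a, and the log2 difference of 0.10 ± 0.06 (interval -0.05 to 0.25) did not pass (limma, adjusted p = 0.323). RRM2B, the p53-inducible small subunit of ribonucleotide reductase, had scaled levels of 11.9, 11.3 and 10.6 TPM with HA-TAZ and 9.36, 10.4 and 11.5 TPM in the controls. These groups overlapped too, at 0.11 ± 0.09 (interval -0.11 to 0.33; limma, adjusted p = 0.457). Both differences turned negative with TPM as deposited, to -0.18 for ZMAT3 and -0.17 for RRM2B.

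RRM2 is the small subunit that cycling cells use, and RRM2B can take its place. RRM2B stood at 6.33% ± 0.101 of the RRM2 level with HA-TAZ and at 6.65% ± 0.719 in the controls, with overlapping groups (exact two-sided permutation test of the log2 ratio, p = 0.7). RRM2 had a log2 difference of 0.18 ± 0.08 (limma, adjusted p = 0.188), and -0.12 with TPM as deposited. Of all 12 genes of deoxynucleotide supply, each of which was tested, none was called by limma, while 6 were higher and 0 lower at an unadjusted p under 0.05, which 30.7% of all genes tested passed.

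**Figure D2:**
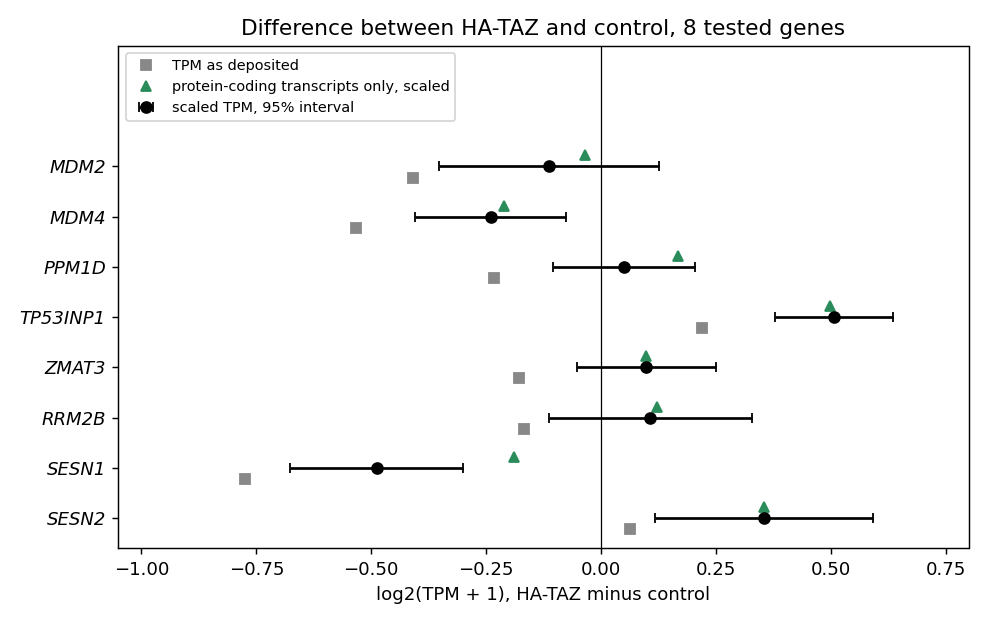
Difference between HA-TAZ and control libraries in log2(TPM + 1) (x axis) for the 8 tested genes, with black points and 95% intervals for scaled TPM, grey squares for TPM as deposited and green triangles for scaled TPM of protein-coding transcripts alone. The interval of TP53INP1 runs from 0.38 to 0.64, and for SESN1 the triangle at -0.19 lies outside the interval of the gene sum. For MDM2 the triangle leaves out the most abundant transcript of the gene, which has no annotated type here.

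The 3 sestrins did not move as a group. SESN1 had deposited levels of 13.2, 16.5 and 13.7 TPM with HA-TAZ and 28.6, 22.7 and 25.1 TPM in the controls. All HA-TAZ libraries lay below all controls, also in scaled TPM, where the mean was 15.9 ± 1.02 against 22.8 ± 1.65. The gene sum fell by 0.49 ± 0.08 on the log2 scale, with an interval of -0.68 to -0.30 (limma, adjusted p = 0.0307). None of the 6 fits with 1 library left out passed, although the differences stayed at -0.55 to -0.45: adjusted p was 0.116, 0.0720 and 0.0889 without HA-TAZ 1, 2 and 3 and 0.0781, 0.0584 and 0.0677 without controls a, b and c. Over all genes, those fits called 0.513%, 0.601% and 0.926% without HA-TAZ 1, 2 and 3 and 1.83%, 0.739% and 2.09% without controls a, b and c. Without the filter on low levels, where 1.46% of all genes were called, adjusted p was 0.0534 (limma).

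SESN2 had scaled levels of 32.5, 29.1 and 33.1 TPM with HA-TAZ and 21.5, 25.3 and 26.8 TPM in the controls. The groups did not overlap on this scale, and the difference of 0.36 ± 0.10 (interval 0.12 to 0.59) missed the threshold (limma, adjusted p = 0.0762). As deposited, the levels were 28.2, 28.2 and 29.5 against 26.0, 27.6 and 28.3 TPM, which overlap, with a difference of 0.06 (limma, adjusted p = 0.445).

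SESN3 was near the floor of the data, at 0.726, 0.492 and 0.615 TPM with HA-TAZ and 0.527, 0.437 and 0.462 TPM in the controls, and was not tested in the main comparison. These groups overlapped, whereas in scaled TPM (0.839, 0.509 and 0.691 against 0.436, 0.401 and 0.437) they did not. Its long coding transcript, SESN3-203, was at 0.374, 0.484 and 0.370 TPM with HA-TAZ and 0.527, 0.437 and 0.462 TPM in the controls. The short SESN3-204, a non-coding transcript of 541 bases, was listed at 0.352, 0 and 0.0323 TPM with HA-TAZ and at 0 in every control.

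The balance between SESN1 and SESN2 separated the groups. The ratio of SESN1 to SESN2 was 0.508 ± 0.0691 with HA-TAZ and 0.937 ± 0.144 in the controls, without overlap (log2 difference -0.88; exact two-sided permutation test, p = 0.1, the smallest it can give). SESN1 made up 31.4%, 36.6% and 31.3% of the summed sestrin TPM with HA-TAZ and 51.9%, 44.8% and 46.6% in the controls. The sum itself was 48.2 ± 1.29 scaled TPM with HA-TAZ and 47.7 ± 2.85 in the controls, with overlapping groups. In TPM as deposited the sum was 43.7 ± 1.56 with HA-TAZ and 53.3 ± 2.28 in the controls, without overlap, so its reading depends on the scaling. The ratio of SESN1 to SESN3 was 24.7 ± 7.98 and 53.6 ± 1.32 (log2 difference -1.16; exact permutation p = 0.1), but -0.28 when the most abundant transcript of each gene was used (exact permutation p = 0.1). For SESN1 to SESN2 that setting gave -0.57 (exact permutation p = 0.1), again without overlap.

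**Figure D3:**
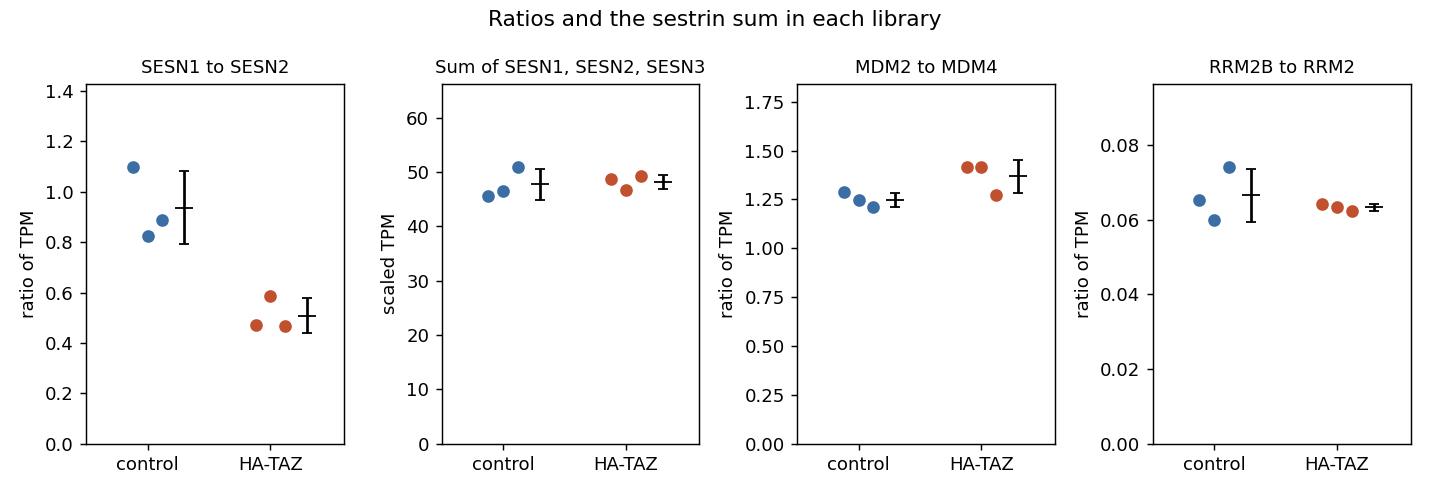
Ratios of TPM within each library, and the summed scaled TPM of the 3 sestrins in the second panel (y axes from 0), for controls (blue) and HA-TAZ (red), with mean ± SD in black. The ratio of SESN1 to SESN2 does not overlap between the groups, whereas the sestrin sum in scaled TPM, the ratio of MDM2 to MDM4 and the ratio of RRM2B to RRM2 do.

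Single transcripts showed where the SESN1 value came from. The long coding SESN1-204 (ENST00000436639.2, 3509 bases), which held 54.5% of the gene's TPM and starts in the upstream window without a match, was at 8.81, 9.68 and 8.59 TPM with HA-TAZ and 13.9, 12.9 and 11.5 TPM in the controls, a scaled log2 difference of -0.18 ± 0.07 (limma over 57448 transcripts, adjusted p = 0.201). The short SESN1-205 (ENST00000517548.1, 381 bases, annotated as a processed transcript with no coding sequence) was at 1.36, 3.25 and 2.19 against 7.96, 4.77 and 7.15 TPM, a difference of -1.01 ± 0.24 (adjusted p = 0.0938). SESN1-207 (ENST00000523632.1, 920 bases, retained intron) was at 0.936, 1.32 and 1.13 against 2.83, 2.47 and 2.57 TPM, at -0.58 ± 0.10 (adjusted p = 0.0714). In SESN1-205 and SESN1-207, 54.3% and 60.0% of the bases lay outside the exons of the gene's coding transcripts in GENCODE 29.

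**Figure D4:**
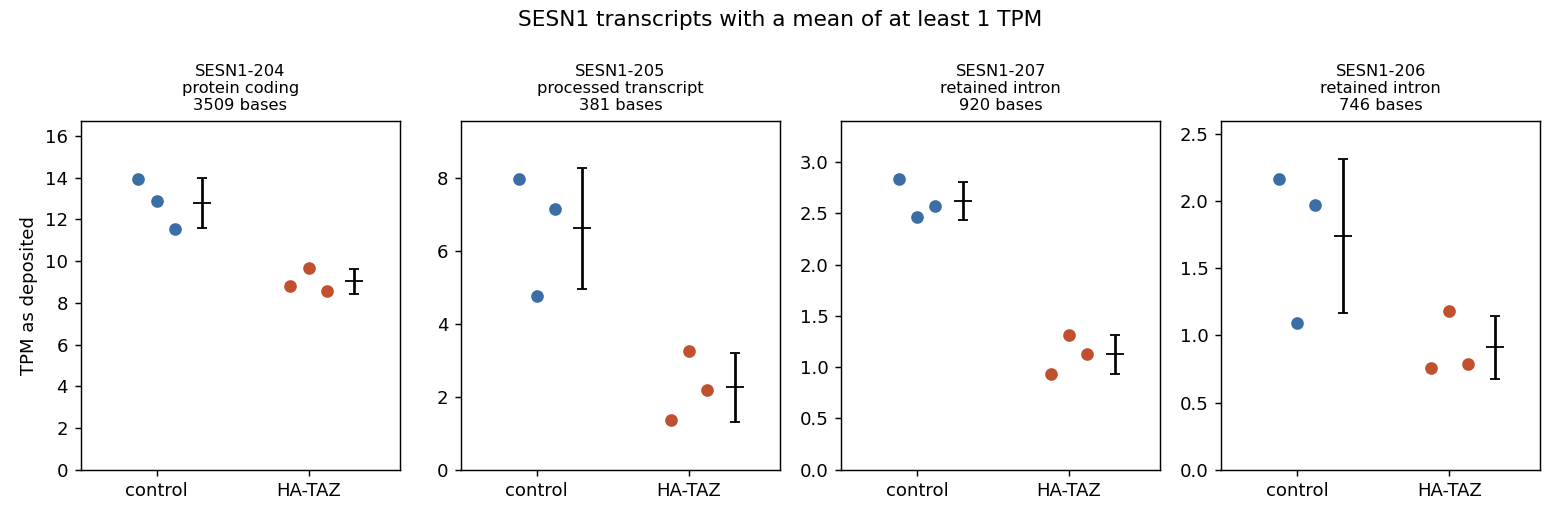
Deposited TPM (y axes from 0) of the 4 SESN1 transcripts with a mean of at least 1 TPM in control (blue) and HA-TAZ (red) libraries, with mean ± SD in black and the annotated type and length above each panel. SESN1-205 and SESN1-207 differ by more between the groups than the coding SESN1-204.

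Transcripts of non-coding types made up 29.2% ± 5.82 of the SESN1 TPM with HA-TAZ and 42.8% ± 5.39 in the controls, without overlap. With protein-coding transcripts alone, the SESN1 difference shrank from -0.49 to -0.19 ± 0.06 (limma, adjusted p = 0.0411), in a fit where the median over all genes was 0.13 and 32.7% were called. The authors' deposited table, which tests estimated counts per transcript, gave natural log effects of -0.893 for SESN1-205 (q = 0.0138) and -0.629 for SESN1-207 (q = 0.0081) but -0.119 for SESN1-204 (q = 0.346). The mean levels that the authors' deposited table lists put these transcripts at about 47.4, 82.1 and 2374 estimated counts per library, so the transcripts with the large differences were the ones with few counts. Summed over transcripts, the estimated counts implied by the authors' deposited table changed by -0.22 on the log2 scale for SESN1, with a median of 0.04 over all genes tested.

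Non-coding types also took a smaller part of all protein-coding genes with HA-TAZ. Retained-intron transcripts held 8.71% to 9.11% of the TPM of these genes in the HA-TAZ libraries and 10.03% to 10.3% in the controls, and processed transcripts 6.24% to 6.58% and 7.24% to 7.66%. The median log2 difference was -0.10 for transcripts of either type and 0.10 for protein-coding transcripts. Their part in the SESN1 result was not tested.

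Of the 83 transcripts of the 9 genes, 36 were tested and none was called by limma, against a background of 0.564%. With only transcripts of a mean of at least 5 TPM, TP53INP1-202 was called, against a background of 11.9%. At an unadjusted p under 0.05, 3 were higher and 8 lower, against 24.3% of all transcripts tested. The authors' deposited table gave statistics for 55 of them, of which 5 had q under 0.05 (background 5.68%) and 3 had q under 0.01 (background 3.05%). Besides the 2 short SESN1 transcripts, those 5 were both coding TP53INP1 transcripts and the single SESN2 transcript, each with an effect above 0.

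Both long coding transcripts of TP53INP1 lay higher with HA-TAZ. TP53INP1-202 (ENST00000448464.2, 58.8% of the gene's TPM) differed by 0.51 ± 0.10 in scaled log2 TPM (limma, adjusted p = 0.0768), and TP53INP1-201 (ENST00000342697.4) by 0.41 ± 0.12 (adjusted p = 0.124). The third, ENST00000378776.4, differed by 0.36 ± 0.29 (limma, adjusted p = 0.485). In the authors' deposited table their natural log effects were 0.402 (q = 8.87e-06) and 0.347 (q = 0.0165), and that of SESN2-201 was 0.274 (q = 0.0041). Transcripts of coding type held most or all of both genes: 91.0% ± 4.23 and 91.5% ± 3.09 of the TPM of TP53INP1 in the HA-TAZ and control libraries, and all of that of SESN2. With coding transcripts alone, TP53INP1 differed by 0.50 (limma, adjusted p = 0.0027) and SESN2 by 0.36, the same size as before, which then passed (limma, adjusted p = 0.0217). In that fit 32.7% of all genes were called and their median was 0.13.

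MDM2 had 37 transcripts, the most of the 9 genes. The largest, ENST00000462284.1 (not matched in GENCODE 29), held 26.7% of its TPM. It was at 12.3, 13.5 and 12.2 TPM with HA-TAZ and 15.2, 14.4 and 13.5 TPM in the controls. Its scaled difference was 0.11 ± 0.07, without overlap between the groups (limma, adjusted p = 0.367). In the estimated counts implied by the authors' deposited table, it held 84.1% of MDM2 and protein-coding transcripts held 4.29%. The MDM2 sum in TPM, and its difference of -0.03 with coding transcripts alone, therefore rest mostly on transcripts with few estimated counts. The next by level, the retained-intron MDM2-219 and MDM2-213, annotated as a target of nonsense-mediated decay, differed by -0.32 ± 0.17 and -0.11 ± 0.26 (limma, adjusted p = 0.299 and 0.819). MDM2-211, a short coding transcript, was listed at 0 in HA-TAZ 1 and at 5.22 and 2.597 TPM in the others, against 4.70, 7.59 and 4.52 TPM in the controls. Reads that overlapping models share are divided between them by estimation, so single MDM2 transcripts are uncertain. The 5 transcripts that start in the internal promoter window with both matches summed to 6.64, 8.55 and 8.01 TPM with HA-TAZ and 10.7, 10.8 and 6.81 TPM in the controls, with overlapping groups. In scaled TPM that sum was 8.50 ± 0.732 and 8.38 ± 1.76. Those of the 5 with statistics in the authors' deposited table had about 5.67 to 89.5 estimated counts each, against 7713 for MDM2. ENST00000462284.1, with most of the MDM2 counts, has no annotated start here and was assigned to no promoter window. The sum therefore rests on few counts and does not show how much MDM2 RNA came from this promoter.

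The lower MDM4 sum also lay mostly in short models. The full-length coding MDM4-205 and MDM4-203, of 10008 and 10073 bases, differed by -0.08 ± 0.17 and -0.05 ± 0.09 in scaled log2 TPM (limma, adjusted p = 0.796 and 0.780). The shorter MDM4-210, MDM4-202, MDM4-208 and MDM4-213, of 481 to 909 bases, differed by -0.28, -0.43, -0.48 and -0.47 (limma, adjusted p = 0.0849 to 0.152). In the estimated counts implied by the authors' deposited table, summed over transcripts, MDM4 changed by -0.10 on the log2 scale, MDM2 by 0.06, TP53INP1 by 0.55 and SESN2 by 0.39. The annotated short models of MDM4 and SESN1 overlap longer ones in part, so their levels rest partly on estimates of shared reads. In MDM4-210 and MDM4-208, 44.4% and 37.3% of the bases lay outside the exons of the gene's coding transcripts.

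Of PPM1D, the coding PPM1D-201 was at 11.6, 10.9 and 10.3 TPM with HA-TAZ and 13.4, 10.9 and 10.05 TPM in the controls (scaled difference 0.22 ± 0.10; limma, adjusted p = 0.245). PPM1D-202, annotated as a target of nonsense-mediated decay, was at 0.612, 2.00 and 1.01 against 2.31, 3.18 and 2.52 TPM (-0.59 ± 0.24; adjusted p = 0.198). Its share is small, and these 2 transcripts leaned in opposite directions in scaled TPM, with neither called. As deposited, both had lower means with HA-TAZ (10.9 against 11.5 TPM for PPM1D-201 and 1.21 against 2.67 TPM for PPM1D-202). The long transcripts of ZMAT3 (ZMAT3-201, 0.03 ± 0.07) and RRM2B (RRM2B-201, 0.06 ± 0.10) had limma adjusted p of 0.801 and 0.716. The shorter ZMAT3-203 differed by 0.20 ± 0.12 and the short PPM1D-203 by -0.14 ± 0.23 (limma, adjusted p = 0.354 and 0.738).

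Around these genes, 5 of 29 tested p53 targets (of 32 listed) were called higher and none lower, with a median of 0.24, where 4.67% of all genes tested were called higher and 2.63% lower. At an unadjusted p under 0.05, 13 were higher and 2 lower, against 30.7% of all genes tested in either direction. The death receptor FAS rose from 7.19 ± 0.496 to 26.5 ± 1.54 scaled TPM (log2 difference 1.75; limma, adjusted p = 0.0011). GADD45A, a stress sensor, rose by 0.88 and PMAIP1 (NOXA), a BH3-only inducer of apoptosis, by 0.65 (limma, adjusted p = 0.0138 and 0.0167). BTG2, an antiproliferative factor, rose by 0.31 and the pore former BAX by 0.33 (limma, adjusted p = 0.0329 and 0.0497), and both were near 0 with TPM as deposited (0.02 and 0.04). With TPM as deposited the list's median was -0.02, with 3 called higher and 2 lower (APAF1 and XPC). Over all genes tested, the median on that scale was -0.27, with 1.15% called higher and 13.5% lower. CDKN1A, the p21 cell cycle inhibitor, stood at 1.55 against 0.81 scaled TPM and was not called (log2 difference 0.51, limma, adjusted p = 0.103). In scaled TPM, APAF1 and XPC leaned the other way, by -0.50 and -0.36, and were not called either (limma, adjusted p = 0.104 and 0.114). With 1 library left out, FAS was called in 6 of 6 fits, GADD45A in 3, PMAIP1 in 2 and BTG2 and BAX in 0.

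**Figure D5:**
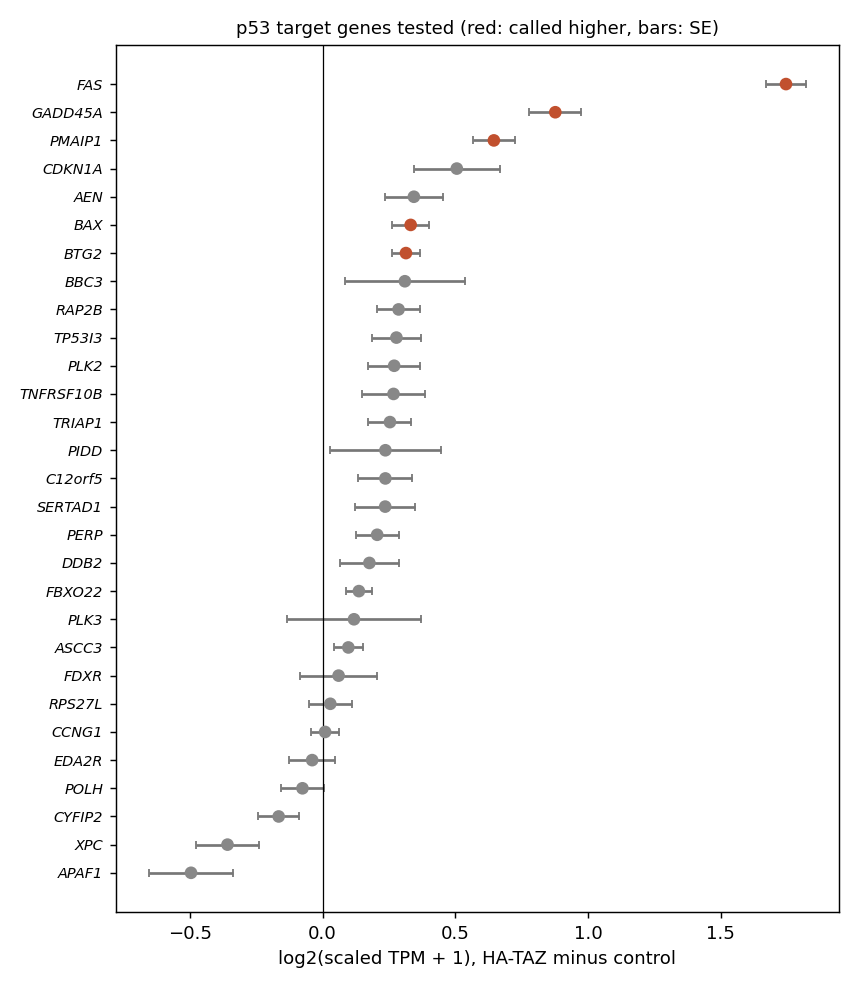
Difference between HA-TAZ and control in log2(scaled TPM + 1) (x axis, bars ± SE) for the 29 tested p53 target genes other than the 9 described here, sorted by size. Red points mark the 5 genes called higher, with FAS at 1.75 far from the others.

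Of the regulators upstream of p53, listed with TP63 and TP73, 1 of 16 tested genes was called (7.29% of all genes tested): HIPK2, a kinase that phosphorylates p53, rose from 10.9 ± 0.527 to 17.9 ± 0.893 scaled TPM (log2 difference 0.67; limma, adjusted p = 0.0106). It was called in 3 of the 6 fits with a library left out and missed the threshold with TPM as deposited (0.39; limma, adjusted p = 0.0590). On that scale 0 genes of the list were called higher and 3 lower, with a median of -0.24 (all genes tested: 1.15% higher and 13.5% lower).

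Of the factors through which sestrins act, the GATOR, KICSTOR, Rag and AMPK subunits, 21 of 24 were tested, 1 was called higher and 2 lower, with a median of 0.07 (all genes tested: 4.67% higher and 2.63% lower). With TPM as deposited, 0 were called higher and 4 lower, with a median of -0.22 (all genes tested: 1.15% higher and 13.5% lower). NPRL2, a GATOR1 subunit, rose by 0.35 (limma, adjusted p = 0.0416). The KICSTOR subunit ITFG2 fell by 0.49 and the GATOR2 subunit WDR59 fell by 0.37 (limma, adjusted p = 0.0258 and 0.0293). When only protein-coding transcripts were summed, ITFG2 shrank to -0.09 and WDR59 changed sign, to 0.08 (limma, adjusted p = 0.550 and 0.349). SESN1 had shrunk to -0.19 but was still called lower. NPRL2 then differed by 0.53 (limma, adjusted p = 0.0208, in the fit that called 32.7% of all genes), and with TPM as deposited by 0.09. None of these 3 was called in any fit with a library left out.

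The stress factors that act on SESN2 and their targets held 6 of 13 tested genes called higher and 0 lower, with a median of 0.28, where 4.67% of all genes tested were called higher. HMOX1 (haem oxygenase), GCLM (glutathione synthesis), TXNRD1 (thioredoxin reductase), NQO1 (quinone reductase) and SRXN1 (sulfiredoxin), all known NRF2 targets, rose by 1.005, 0.56, 0.21, 0.41 and 0.45, and the stress factor ATF3 by 0.87 (limma, adjusted p = 0.0090 for ATF3 and 0.0146 to 0.0451 for the others). TXNRD1 was at -0.08 with TPM as deposited. On that scale the list's median was -0.02, with 2 called higher and 1 lower (all genes tested: median -0.27, 1.15% higher and 13.5% lower). With 1 library left out, ATF3 was called in 5 of 6 fits, HMOX1 in 2, GCLM in 1 and the other 3 in 0. The remaining tested genes of the list were not called. ATF4 differed by 0.16 and NFE2L2 (NRF2) by -0.03 in scaled TPM (limma, adjusted p = 0.117 and 0.765). DDIT3, TRIB3, ASNS, CHAC1 and DDIT4 differed by 0.04, 0.31, -0.02, 0.27 and 0.28 (limma, adjusted p = 0.131 to 0.829). Of the FOXO factors and their targets, 1 of 10 tested genes was called (7.29% of all genes tested), BCL2L11 (BIM), a BH3-only inducer of apoptosis, which rose by 0.42 (limma, adjusted p = 0.0218). It was called in 2 of the 6 fits with a library left out and stood at 0.13 with TPM as deposited.

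The genes whose pattern over the 6 libraries was most like that of TP53INP1, by the root mean square difference of centred log2(scaled TPM + 1), were CYP26A1 (0.0280) and TAPBP under 2 gene IDs (0.0328 and 0.0350). Those most like SESN1 were AC010319.1 (0.0203), KCTD19 (0.0204) and the sense-intronic RNA gene ENSG00000265948 (0.0241). With only 6 libraries in 2 groups, such likeness mainly repeats the difference between the groups.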

How the data were processed

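Per the submitters' processing notes, the reads were quantified with kallisto 0.46.0 and compared with sleuth 0.30.0 on GRCh37. The annotation release is not given in the sources used here. The authors deposited TPM per transcript, with each library summing to 1000000, and a table of their own Wald test, whose effect and mean count are natural log values and which gives p-values and q-values, per the file headers. Its standard errors and variance terms are scores that the authors deposited on the natural log scale, per the file headers. The control columns carry a name found in no sample label and were taken as the wild type group because the other 3 columns name TAZ. They cannot be tied to numbered samples.

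TPM was summed per gene ID, divided by median-of-ratios factors (genes with a mean of at least 1 TPM and above 0 in all libraries) and tested as log2(scaled TPM + 1) with limma 3.58.1 (R 4.3.3, intensity trend, two-sided, Benjamini-Hochberg adjusted over all 22651 genes with a mean of at least 1 TPM, threshold 0.05). Fold changes on this scale understate changes of low genes. Transcript types came from GENCODE 29 by ID without version (84.7% of transcripts matched), and promoter windows from RefSeq (GRCh38.p14). Read depth per library is unknown, so no counting interval is given.

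The text names all 9 genes, the called genes of each other list (up to 8), RRM2, the leading 3 transcripts with a mean of at least 1 TPM per gene, and the 3 genes most like each called one. CDKN1A, APAF1, XPC, the uncalled stress genes, the sestrin sum, promoter sums and the other transcripts named were chosen after their values were seen. The genes and lists were chosen with earlier results of these data known. Some genes of the lists are not reported here. Alternatives are given in the closing section.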

Additional observations from a re-analysis of the deposited data

How the results depend on the processing

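The number of the 9 genes called, 2 as reported, was 1 without the filter on low levels and 0 to 1 with a library left out. It was 3 of 8 with coding transcripts only (SESN2 in addition), where 32.7% of all genes were called. With TPM as deposited it was 2 of 8 (SESN1 and MDM4, not TP53INP1), where 14.7% of all genes were called. Of the p53 targets 5 of 29 were called, but 3 of 31 without the filter, 3 of 29 without the intensity trend and 1 to 3 with a library left out. With coding transcripts only, an alternative chosen after seeing the data, 11 of 25 were called, all higher. In that fit 28.6% of all genes were called higher. Over all genes, 1652 were called as reported (7.29%), 691 without the filter (1.46%), 758 without the trend (3.35%) and 3329 with TPM as deposited (14.7%). With coding transcripts only, 3443 of 10527 genes were called (32.7%), and with a library left out 118 to 470 were called (0.513% to 2.09%). The split of higher and lower calls over all genes was 1057 and 595 as reported, 261 and 3068 with TPM as deposited, and 660 and 859 with factors from protein-coding genes. Of the transcripts of the 9 genes none was called as reported, 1 at a mean of at least 5 TPM (ENST00000448464.2 of TP53INP1), and 5 and 3 by the authors' q under 0.05 and under 0.01.

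With the most abundant transcript of each gene, log2 ratios moved to 0.21 (MDM2 to MDM4), -0.28 (SESN1 to SESN3), -0.57 (SESN1 to SESN2) and -0.18 (RRM2B to RRM2). With a library left out they ranged over 0.10 to 0.18, -1.41 to -0.97, -0.99 to -0.76 and -0.14 to 0.0171, where the sign of RRM2B to RRM2 turned without control c. TPM as deposited turned the sign of ZMAT3 (-0.18), PPM1D (-0.23), RRM2B (-0.17), TXNRD1 (-0.0848), RRM2 (-0.12) and the transcripts ENST00000462284.1 (-0.17), ENST00000311417.2 (-0.23), ENST00000432729.1 (-0.0327), ENST00000305921.3 (-0.0572) and ENST00000251810.3 (-0.20). Factors from protein-coding genes turned PPM1D (-0.0209) and ENST00000311417.2 (-0.000174), and coding transcripts only turned WDR59 (0.0846). With a library left out, ENST00000393417.3 ranged from -0.403 to 0.0898 and ENST00000391947.2 from -0.216 to 0.0569 (both above 0 without HA-TAZ 3), and ENST00000590418.1 from -0.339 to 0.0872 (above 0 without HA-TAZ 2). Fewer libraries were fitted where one was left out, and fewer genes share the adjustment under a stricter filter; the cause of the other changes was not tested. No paired analysis was possible because the control columns cannot be tied to numbered samples.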
